A study of Mus musculus with 22 samples.

Results

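The 8 genes described here encode the transcription factor family NF-kappaB and its best-known brakes: the DNA-binding subunits Nfkb1, Nfkb2, Rel, Rela and Relb, the inhibitors Nfkbia and Nfkbid, and the ubiquitin-editing enzyme Tnfaip3. They were chosen by name, and every peak of 18 chromatin immunoprecipitation sequencing (ChIP-seq) lists that overlapped a gene body or 10 kb on either side of it was taken as a member's peak, by target, genotype and replicate. The 8 genes are among 21887 protein-coding genes, and 175 of the 161247 regions of the series lay at them. The cells were primary mouse regulatory T cells (Treg cells, which restrain immune responses and depend on the factor Foxp3) from spleen and lymph nodes. Before fixation in 1% formaldehyde, cells of both genotypes had spent 1 h in a commercial stimulation cocktail. Fixation ran for 5 min ahead of the histone immunoprecipitation and for 30 min ahead of the factor ones. IkE5-deficient cells (IkE5 from here on) were set against wild-type (WT) cells. The name IkE5 is not spelled out in the labels, Ikzf1, which encodes the zinc finger protein Ikaros, appears in the series title, and the promoter of any Cre, the age and the number of animals are not given in the sources used here. The targets Foxp3, p300 (an acetyltransferase of histones), NFAT1 (a factor switched on by calcium signals) and H3K27ac (acetylated lysine 27 of histone H3, a mark of active promoters and enhancers) each had 2 libraries in IkE5 and 2 in WT. Ikaros had 2 libraries, both in WT, and 4 input samples were not analysed here.

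NF-kappaB proteins act as dimers that share a Rel homology domain and bind kappaB sites in promoters and enhancers. In resting cells inhibitors of the IkB family hold the dimers in the cytoplasm, and signals from the antigen receptor or from receptors of the tumour necrosis factor family release them through the IkB kinases. Several inhibitors are themselves NF-kappaB targets, which closes a feedback loop. In T cells c-Rel, the product of Rel, is known to be needed for Treg development through the Foxp3 locus, and Nfkbid has been linked to Foxp3 induction as well.

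The lists held chromosome, start and end of each peak and no score or read count, so read depth is unknown. A list with more peaks may reflect depth, enrichment or the calling threshold as well as binding, and none of these can be told apart here. Fewer cells with a bound site and less signal per cell cannot be told apart either. The Foxp3 lists held 17265 to 21619 peaks in IkE5 and 16526 to 20608 in WT, and the p300 lists 8971 to 11670 in IkE5 and 8775 to 11457 in WT. The NFAT1 lists were shorter in IkE5, with 4908 and 3435 peaks against 7825 and 6850 in WT. The library numbered 2 had fewer peaks than the library numbered 1 in both genotypes for each of these targets and for H3K27ac. H3K27ac covered 72.9 and 62.1 Mb in the IkE5 lists and 79.6 and 54.6 Mb in the WT lists. All 7 Treg marker genes carried H3K27ac in every library, with 215 and 173 kb covered in IkE5 and 206 and 133 kb in WT. Markers of other cells were not at 0: 5 of 7 B cell genes had H3K27ac in every library, 6.71 to 7.09 kb in IkE5 and 7.30 to 9.24 kb in WT. The myeloid list had it at 3 of 6 genes in every library (4.14 and 4.70 kb in IkE5, 8.37 and 5.58 kb in WT), and the list for CD8 T and NK cells at 2 or 3 of 6 (1.67 and 0.886 kb in IkE5, 2.08 and 2.15 kb in WT). Their part in the results at the NF-kappaB genes was not tested.

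The promoters of 6 of the 8 genes were in the RefSeq promoter table of GRCm38.p6, the assembly of mm10, and Nfkb1 and Relb are named without one. Each sequence below is the 250 bases upstream of a listed start, 5′ to 3′ on the gene's strand, and the capitals mark matches of the 10-base kappaB consensus on either strand, with overlapping matches run together. They are shown because factor peaks covered most of these matches. The Rela promoter, which has no match, is shown for contrast. The positions are chr11:23770970-23771219 (minus strand) for Rel, chr19:5637291-5637540 (plus) for Rela, chr19:46304487-46304736 (plus) for the first of the 3 starts of Nfkb2, chr12:55492648-55492897 (minus) for Nfkbia, chr7:30422156-30422405 (plus) for the second of the 3 starts of Nfkbid, and chr10:19015411-19015660 (minus) for the upstream one of the 2 starts of Tnfaip3.
Rel: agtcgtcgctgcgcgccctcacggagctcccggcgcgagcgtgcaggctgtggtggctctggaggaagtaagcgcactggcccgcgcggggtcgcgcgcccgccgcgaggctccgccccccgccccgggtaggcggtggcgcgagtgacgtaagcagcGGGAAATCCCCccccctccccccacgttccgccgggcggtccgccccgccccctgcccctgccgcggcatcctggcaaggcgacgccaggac
Rela: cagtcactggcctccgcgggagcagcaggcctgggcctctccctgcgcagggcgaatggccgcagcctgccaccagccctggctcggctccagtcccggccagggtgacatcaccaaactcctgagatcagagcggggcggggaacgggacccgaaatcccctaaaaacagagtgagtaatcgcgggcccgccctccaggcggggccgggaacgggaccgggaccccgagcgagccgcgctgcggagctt
Nfkb2: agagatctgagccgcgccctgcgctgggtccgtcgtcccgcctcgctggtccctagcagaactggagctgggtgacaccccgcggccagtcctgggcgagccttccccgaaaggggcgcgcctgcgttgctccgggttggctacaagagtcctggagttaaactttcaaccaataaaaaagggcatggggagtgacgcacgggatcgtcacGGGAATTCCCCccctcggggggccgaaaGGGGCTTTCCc
Nfkbia: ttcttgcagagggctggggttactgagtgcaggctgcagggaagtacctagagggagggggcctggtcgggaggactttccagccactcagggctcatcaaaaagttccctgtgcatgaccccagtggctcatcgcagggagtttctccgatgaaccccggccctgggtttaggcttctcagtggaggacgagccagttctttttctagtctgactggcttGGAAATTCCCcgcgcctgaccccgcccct
Nfkbid: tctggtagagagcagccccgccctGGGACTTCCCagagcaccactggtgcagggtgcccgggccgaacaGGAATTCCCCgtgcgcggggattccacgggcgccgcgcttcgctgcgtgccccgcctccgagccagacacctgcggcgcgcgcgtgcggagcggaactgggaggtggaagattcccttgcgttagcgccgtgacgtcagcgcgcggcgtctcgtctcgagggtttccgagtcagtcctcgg
Tnfaip3: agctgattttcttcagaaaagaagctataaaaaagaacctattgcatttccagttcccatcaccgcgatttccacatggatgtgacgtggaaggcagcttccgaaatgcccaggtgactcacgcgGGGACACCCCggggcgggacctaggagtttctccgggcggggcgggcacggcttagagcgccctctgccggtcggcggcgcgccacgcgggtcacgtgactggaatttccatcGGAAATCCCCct

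A kappaB match was present in 7 of the 11 promoters listed for the 6 genes, against 7.91% of 21263 promoters of the same length in the table. They belonged to 5 of the 6 genes, Rela being the exception, and the share of all genes with a match was not counted. Promoters of one gene are not independent, and neighbouring ones listed for Nfkb2 share bases. The NFAT core GGAAA (both strands, and contained in some of the kappaB matches) was in 9 of the 11 promoters, against 54.6% of all. The Ikaros core TGGGAA was in 2 of the 11, one each at Nfkbid and Tnfaip3, against 20.9% of all, and the forkhead core TGTTTA was in 1, the downstream start of Tnfaip3, against 10.5%. These are matches of letters and not measured binding. Whether the peaks lay on the matches differed from gene to gene. Both stretches in the Tnfaip3 promoter were covered by a peak in all 14 lists of the bound proteins (Foxp3, p300, NFAT1 and Ikaros). Both stretches printed for Nfkb2 were covered in 11 of the 14 lists, both printed for Nfkbid in 10, and the stretch of Nfkbia in 6. The Nfkb2 stretches at its other starts, which are not printed, were covered in 9 and in 2 lists. At Rel no list had a factor peak on the match, and H3K27ac covered it in all 4 libraries. The factor peaks of the Rel promoter began upstream of the match, at chr11:23771101-23771719.

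Ikaros was the most widespread factor at these promoters, here taken with 50 bases downstream of the start. In both WT libraries it had a peak at 5 of the 6 genes, all but Rela, against 31.0% of 17492 genes with a listed promoter. Foxp3 had peaks in both libraries at 3 of the 6 genes in IkE5 (Nfkb2, Nfkbid and Tnfaip3) and at 3 in WT (Rela, Nfkbid and Tnfaip3), where 21.7% of genes in IkE5 and 22.7% in WT had them. p300 did so at Rel, Nfkb2 and Tnfaip3 in IkE5 and at Nfkb2, Nfkbid and Tnfaip3 in WT, against 6.52% of genes in IkE5 and 8.31% in WT. NFAT1 was found in both libraries at 2 genes in IkE5 (Nfkbid and Tnfaip3) and at 3 in WT (the same pair and Nfkb2), against 1.10% and 4.38% of genes. H3K27ac covered all 6 promoters in all 4 libraries, against 48.0% of genes covered in both IkE5 libraries and 47.5% in both WT libraries. The 6 genes were not matched to other genes for activity.

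Across the whole windows, the peaks of all 14 lists of bound proteins were joined where they overlapped by at least 1 bp, which gave 45 sites at the 8 genes. Neighbouring peaks were joined in chains, so the lists of a wide site need not share a base. Wide sites lay at the starts of Rela (1922 bp), Nfkb2 and Nfkbid (1530 bp each). The Nfkb1 window, 127 kb long, held 19 of them, or 14.9 per 100 kb. Per length, Nfkbia had the highest density at 17.2 per 100 kb and Rela the lowest at 6.52. Of the 45 sites, 6 had a peak in 10 or more of the 14 lists (13.3%, against 12.2% of 44553 sites in the series), and these fell at 6 different genes of the 8, against 19.0% of all genes with such a site. Another 18 sites came from a single list, 40.0% against 33.6% in the series. H3K27ac overlapped 40 of the 45 sites (88.9%, against 77.4%). Some windows also reached into other genes: Pus10 beside Rel, Sipa1 beside Rela, Psd beside Nfkb2, Clasrp and Clptm1 beside Relb, and Aplp1, Hcst and Tyrobp beside Nfkbid. A peak in such a flank cannot be assigned to one gene of the pair.

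**Figure D1:**
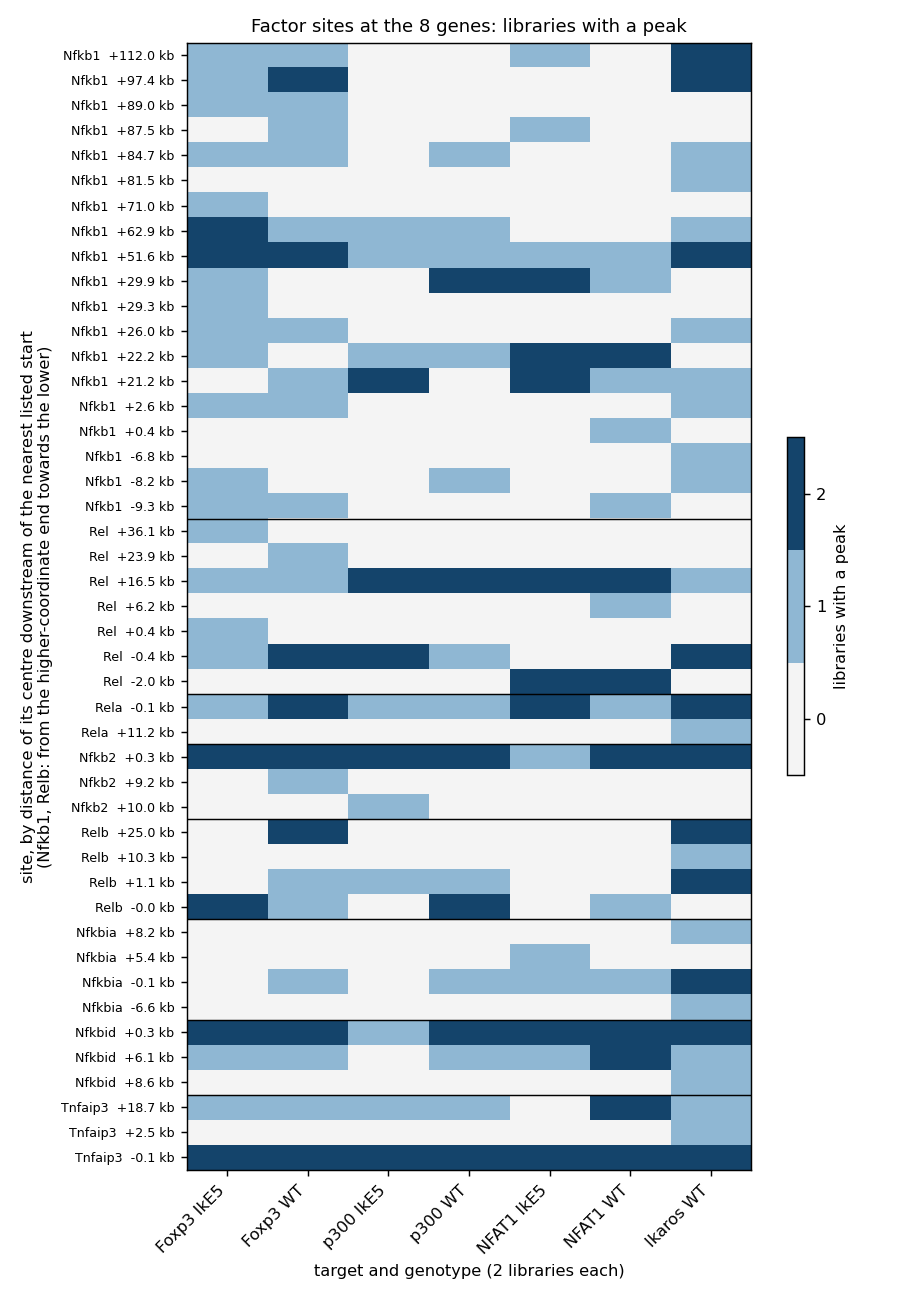
Each row is a site where peaks of Foxp3, p300, NFAT1 or Ikaros overlapped at an NF-kappaB gene, placed by the distance of its centre downstream of a start in kb, and the colour gives how many of the 2 libraries of each target and genotype had a peak. The Tnfaip3 start (bottom row) is dark in every column, and the Nfkb2 and Nfkbid starts in all but 1. Of the 45 rows, 18 hold a peak in 1 library alone.

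The Tnfaip3 start was the only one of the 45 sites with a peak in all 14 lists. The share of such sites in the series was not counted. Tnfaip3 encodes A20, which removes activating ubiquitin chains from signalling proteins and so ends NF-kappaB signalling. Its site, chr10:19015159-19015826, carried Foxp3, p300 and NFAT1 in both IkE5 libraries and in both WT libraries, and Ikaros in both WT libraries. The start region of Nfkb2 (p100, the precursor that binds and restrains RelB) at chr19:46304280-46305809 was in 13 lists, missing NFAT1 in 1 IkE5 library. The start region of Nfkbid (IkBNS, a nuclear IkB protein) at chr7:30421933-30423462 was also in 13, missing p300 in 1 IkE5 library. A site inside Rel at chr11:23754151-23754721, 16.5 kb downstream of the start, was in 11 lists. There p300 and NFAT1 had peaks in both libraries of each genotype, and Foxp3 in 1 library of each and Ikaros in 1 of 2. Inside Nfkb1 (p105, the precursor of p50) the site shared most widely, chr3:135640012-135640744, was in 10 lists, with Foxp3 in both libraries of each genotype and Ikaros in both WT libraries. It lay 51.6 kb from the higher-coordinate end of the gene, which serves as the point of reference for Nfkb1 and Relb because no strand is given for them in the tables used. The Rela start, chr19:5636487-5638408, was in 10 lists as well, but as a chain of peaks spread over 1922 bp. Within it the 2 Ikaros peaks did not overlap each other, and most NFAT1 peaks lay downstream of the p300 peaks. Rela encodes p65, the subunit of the canonical dimer, and this site was 1 of its 2. Nfkbia, the gene of IkB-alpha that is induced by NF-kappaB itself, and Relb, the partner of p52 in the alternative pathway, had no site in more than 6 lists.

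**Figure D2:**
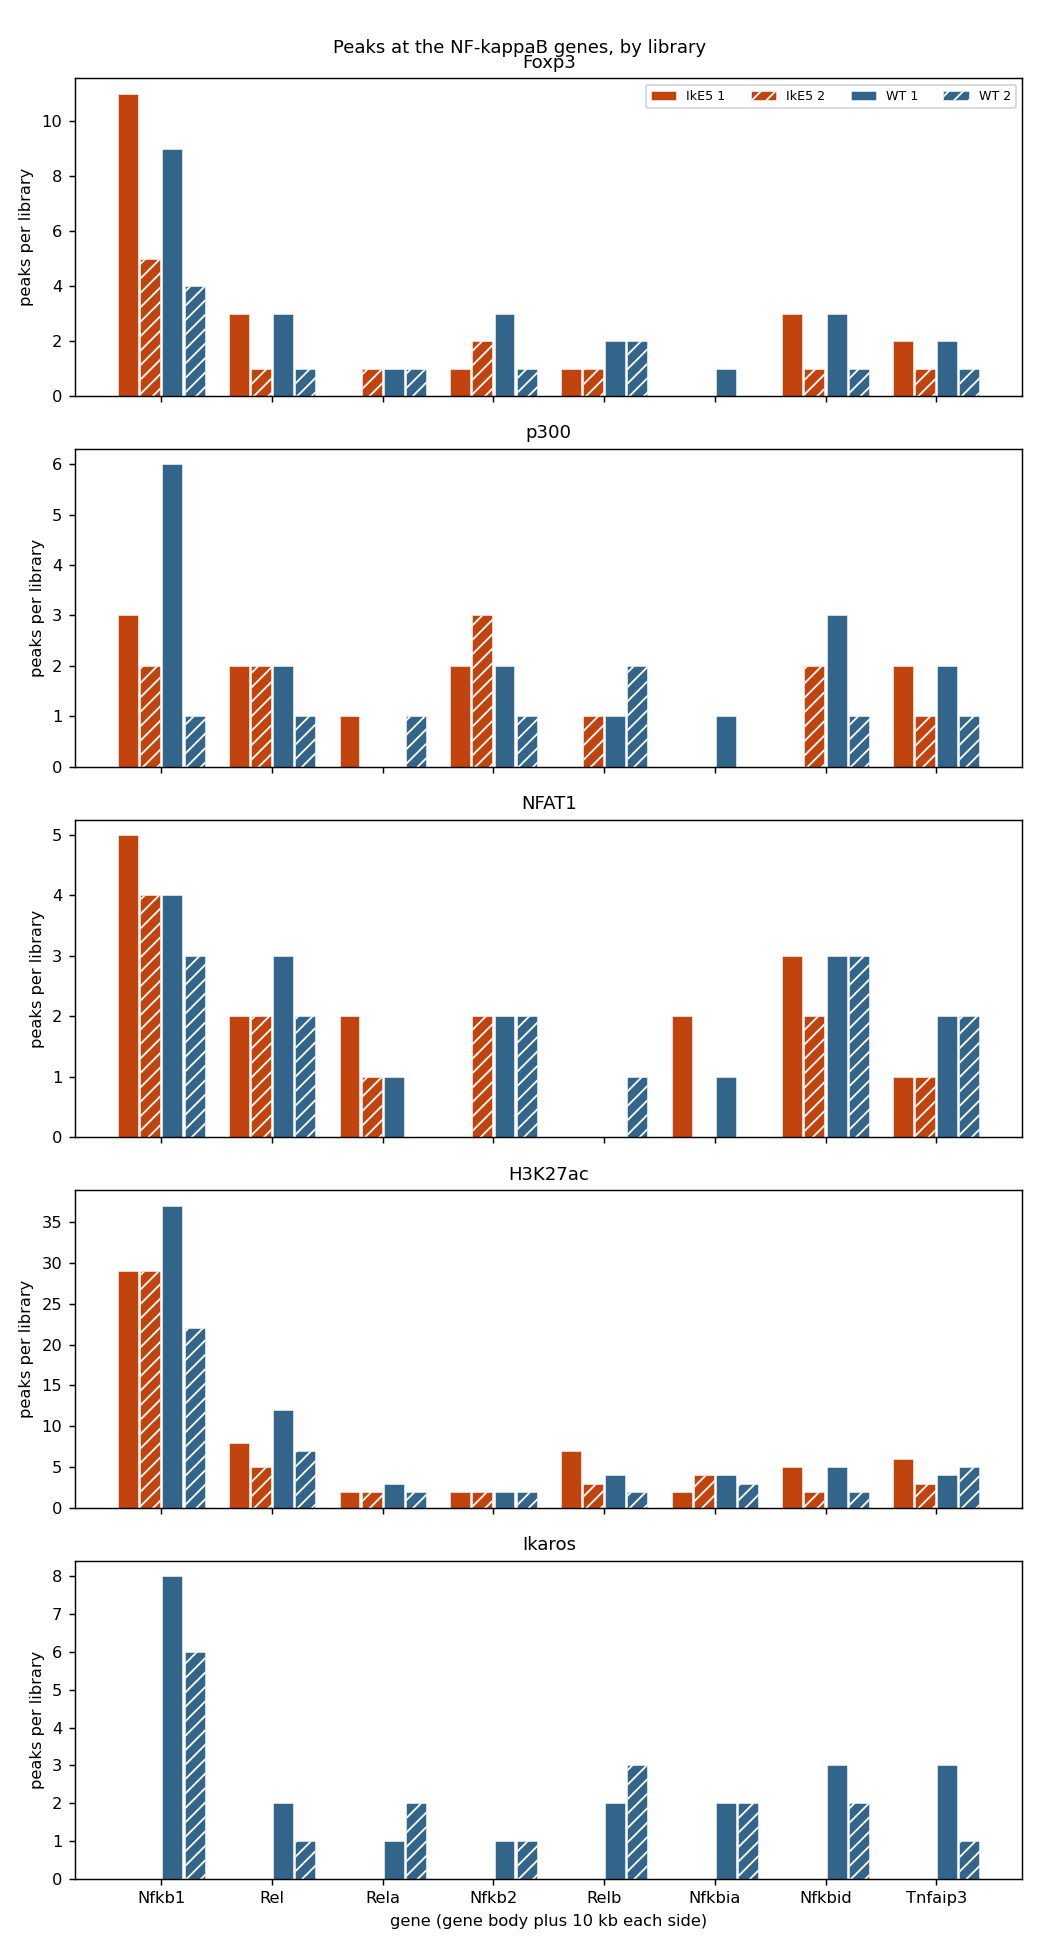
Bars give the number of peaks in each library (vertical axis) at each of the 8 genes with 10 kb on each side (horizontal axis), with IkE5 libraries left of WT libraries and hatching for the libraries numbered 2; Ikaros was mapped in WT alone. Summed over libraries, Nfkb1 has the most peaks for all 5 targets, and libraries numbered 2 are often below those numbered 1 in both genotypes.

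The number of peaks at the 8 genes together overlapped between the genotypes for each target. Foxp3 had 21 and 12 peaks in the IkE5 libraries and 24 and 11 in the WT libraries, means of 16.5 ± 6.36 and 17.5 ± 9.19 (SD, n = 2 each). p300 had 10 and 11 in IkE5 and 17 and 8 in WT, means of 10.5 ± 0.707 and 12.5 ± 6.36 (SD, n = 2 each). In both cases the IkE5 values lay inside the span of the WT values. H3K27ac had 61 and 50 peaks in IkE5 and 71 and 45 in WT, again inside it. The ratio of means, IkE5 over WT, was 0.943 for Foxp3 and 0.84 for p300. It turned to 1.5 and 1.31 without the WT library numbered 1, so no direction can be read from it. With 2 libraries against 2, the smallest 2-sided p that an exact permutation test can give is 0.333, so no such count can pass 0.05. Nothing says that libraries came from separate animals, so the spread between them, and any p built on it, may be technical.

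For NFAT1 the lists as a whole were shorter in IkE5, while the numbers of peaks at the 8 genes overlapped between the genotypes. NFAT1 had 15 and 12 peaks at them in IkE5 and 16 and 13 in WT, means of 13.5 ± 2.12 and 14.5 ± 2.12 (SD, n = 2 each). The ratio of the means, IkE5 over WT, was 0.931 at the 8 genes and 0.569 over all peaks of the lists. Counted as regions, 10 at the 8 genes had a peak in both WT libraries. Of these, 6 had one in both IkE5 libraries, 3 in 1 of them and 1 in neither. Over the series, 40.6% of the 5301 regions of that kind had none in either IkE5 library, against this 1 of 10 (10.0%). For H3K27ac the same share was also below the series, at 3.45% against 11.7%. For Foxp3 (12.5% against 7.71%) and p300 (33.3% against 15.2%) it was above the series. The difference between the 8 genes and other genes was not tested. With 10 NFAT1 regions, 1 region moves the NFAT1 share by 10 percentage points. Rel had 2 and 2 NFAT1 peaks in IkE5 and 3 and 2 in WT, with sites 16.5 kb downstream and 2.03 kb upstream of the start found in all 4 libraries. Nfkbid had 3 and 2 NFAT1 peaks in IkE5 and 3 and 3 in WT. At Nfkb1 there were 5 and 4 in IkE5 and 4 and 3 in WT. In each of these genes NFAT1 was therefore called in every IkE5 library, as it was at Rela and Tnfaip3. Nfkb2 had 0 and 2 NFAT1 peaks in IkE5 and 2 and 2 in WT. Nfkbia had 2 and 0 in IkE5 and 1 and 0 in WT, and Relb 0 and 0 in IkE5 and 0 and 1 in WT.

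Regions present in both libraries of one genotype and in neither of the other were few, 7 over the 4 targets that were mapped in both genotypes. All other regions at the 8 genes had peaks in both genotypes or in 1 library alone. Foxp3 had 33 regions there, of which none was IkE5 only (3.22% of Foxp3 regions in the series) and 1 was WT only (2.44%). By gene, 0 of 8 and 1 of 8 held such a region, against 7.25% and 6.31% of genes with any Foxp3 region. Among 20 p300 regions 1 was IkE5 only (6.01% in the series) and 2 were WT only (5.63%), which is 1 gene and 2 genes of 8 against 8.56% and 11.3% of genes. NFAT1 had 23 regions, of which none was IkE5 only (3.72% in the series) and 1 was WT only, against 19.4% in the series. That was 0 and 1 of 8 genes against 4.61% and 31.1%. H3K27ac had 69 regions, 1 IkE5 only (3.90%) and 1 WT only (4.69%), or 1 and 1 of 8 genes against 11.2% and 13.3%. By region, the shares at the 8 genes lay below those of the series for both kinds in NFAT1 and H3K27ac. For Foxp3 and p300 they lay below for IkE5 only and above for WT only. By gene, H3K27ac lay near the shares of all genes. These shares rest on counts of 0 to 2, and their difference from the series was not tested. Calls that ask for 1 library fewer are more frequent by construction, with 14 IkE5 only H3K27ac regions without the IkE5 library numbered 2 and 12 WT only ones without the WT library numbered 2.

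The single Foxp3 region that was WT only, chr7:19604175-19604676, lay beyond the lower-coordinate end of Relb and inside its neighbour Clasrp. Both Ikaros libraries in WT had a peak there, and H3K27ac was present in all 4 libraries. Relb also held a WT only p300 region at its higher-coordinate end, chr7:19629437-19629942. The Foxp3 peak of 1 IkE5 library overlapped it. Those of the other IkE5 library and of 1 WT library ended before it, within a joined site of 1319 bp, and H3K27ac peaks lay at that site in every library. An H3K27ac region of 2630 bp, chr7:19633049-19635678, was IkE5 only and lay in the Relb window within the gene Clptm1, so it cannot be assigned to Relb. Relb had no NFAT1 peak in IkE5 and a single one in WT.

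Nfkb1 held a p300 region of each kind. The WT only region, chr3:135661707-135662225, lay inside the gene, 30.0 kb from its higher-coordinate end. NFAT1 had a peak at that site in both IkE5 libraries and in 1 WT library. The IkE5 only region, chr3:135670487-135671032, lay 21.2 kb from the same end, and NFAT1 was found there in both IkE5 libraries and 1 WT library too. A neighbouring site at 22.2 kb had NFAT1 in all 4 libraries and p300 in 1 library of each genotype. Placed side by side, the 3 sites show p300 calls that switch between libraries over a stretch where NFAT1 was called in at least 3 of 4.

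Tnfaip3 held the WT only NFAT1 region of the set, chr10:18992973-18993495, 18.7 kb downstream of the nearer of its 2 starts and past the end of the gene. Foxp3 and p300 had peaks at the same site in 1 IkE5 library and 1 WT library each, and Ikaros in 1 of 2 WT libraries. At the upstream start of Tnfaip3, whose printed promoter holds 4 GGAAA matches, NFAT1 had a peak in every library. Rel held the WT only H3K27ac region, chr11:23739718-23740795, inside the gene and 30.7 kb downstream of the start.

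**Figure D3:**
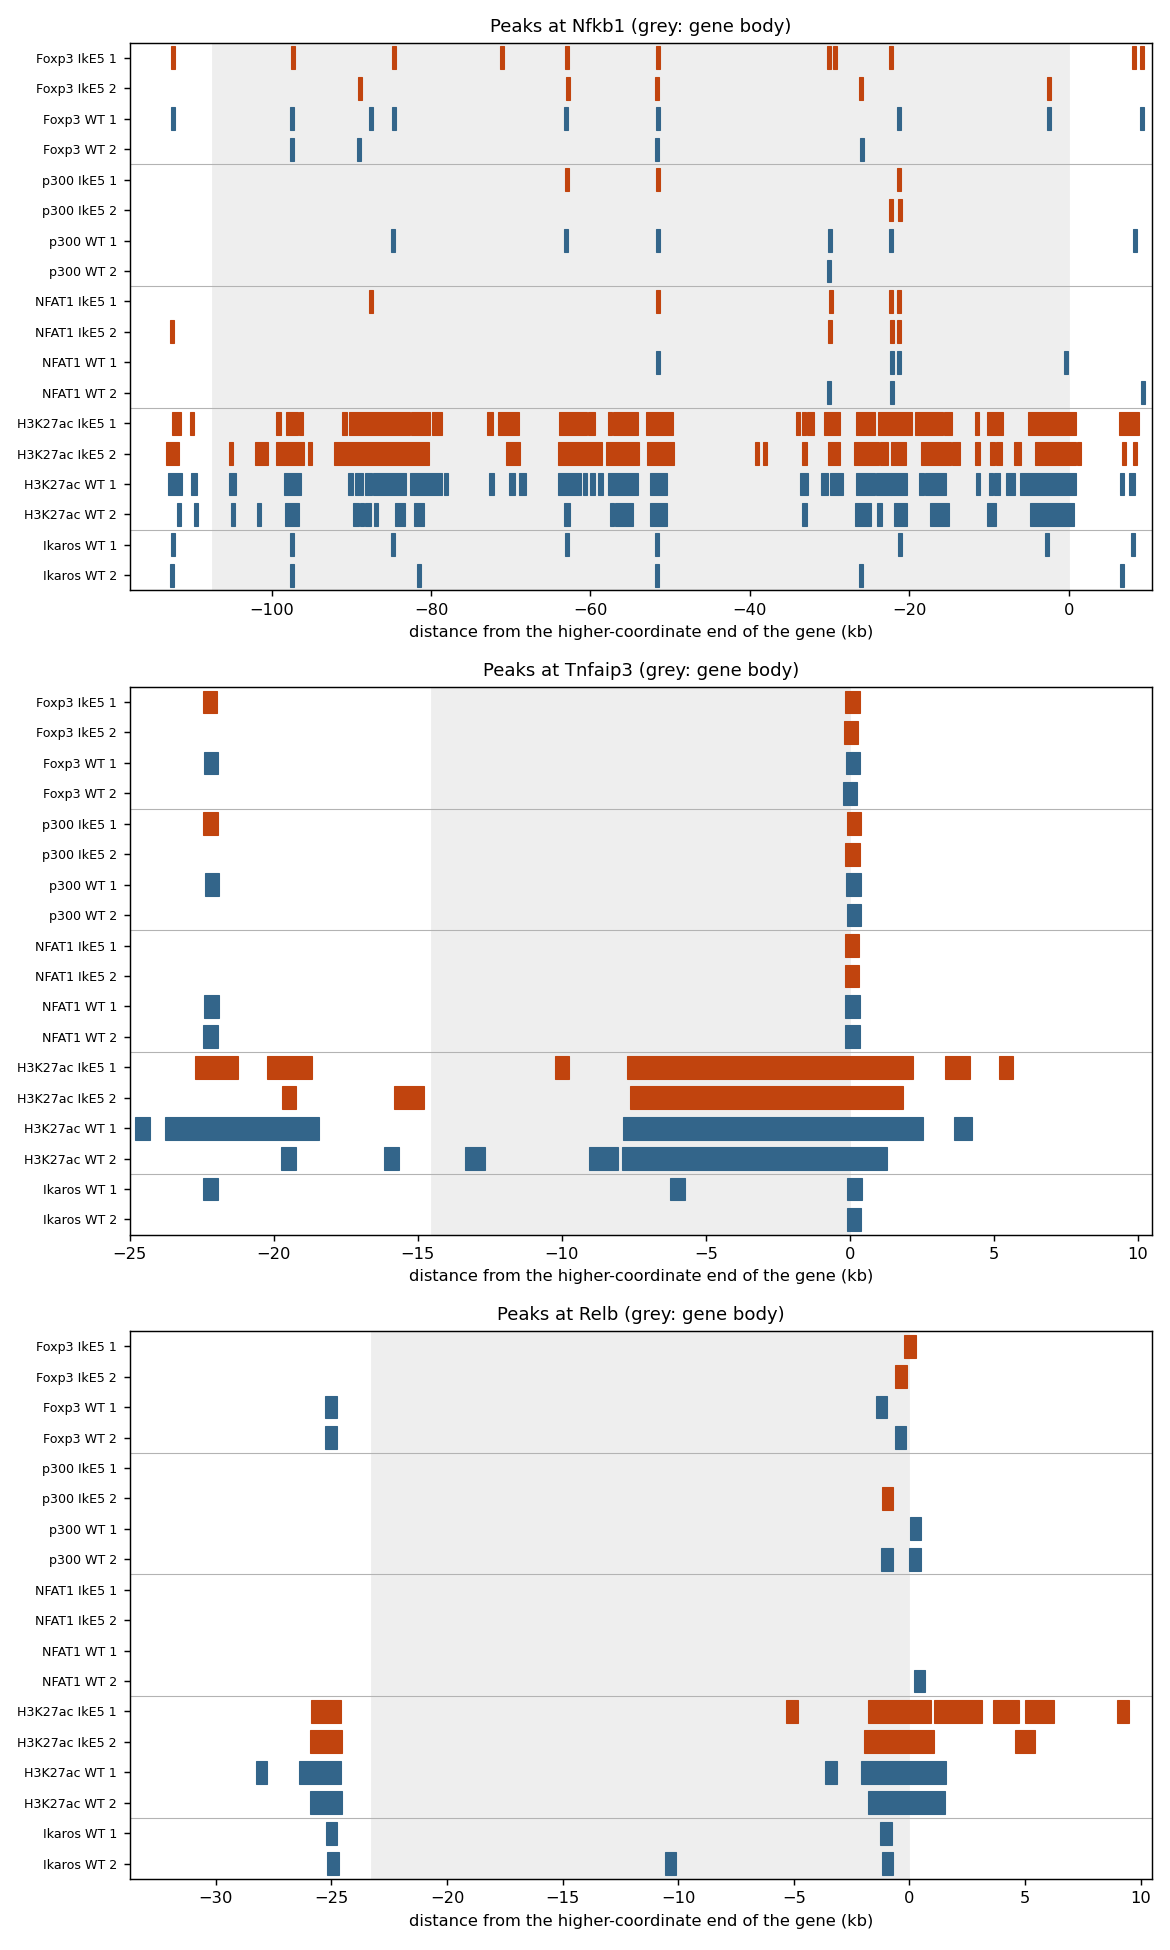
Each bar is a peak of one library at Nfkb1, Tnfaip3 or Relb, placed by its distance in kb from the higher-coordinate end of the gene (horizontal axis), with IkE5 libraries in red above WT libraries in blue for each target and the gene body in grey. At Tnfaip3 all 14 lists of bound proteins align on the start at 0, and the NFAT1 peaks beyond the other end of the gene are in WT alone.

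The graded measure in these lists was the length covered by H3K27ac peaks, taken over each window, scaled to the library's total, and compared on log2(scaled length + 1000 bp) with limma. Of 12714 genes tested, 0.739% were higher and 0.385% lower in IkE5 at an adjusted p under 0.05. None of the 8 genes passed in either direction. By limma, 1 of the 8 had an unadjusted p under 0.05, against 1637 of the 12714 genes tested. The number of genes past the threshold, 143, was 0 without scaling and 631 without the IkE5 library numbered 2. The log2 differences were positive for 4 genes and negative for 4, with a median of 0.02 against −0.02 for all genes tested. On this scale a log2 difference understates the change of genes with short coverage.

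Nfkb1 had the largest difference. Its scaled covered length was 52.7 and 62.9 kb in IkE5, against 45.8 and 35.1 kb in WT. Both IkE5 libraries were above both WT libraries, and the log2 difference was 0.51 ± 0.21 (SE; limma, adjusted p = 0.339). Unscaled, the IkE5 lists covered 57.1 and 58.1 kb and the WT lists 54.2 and 28.4 kb, so the low value belonged to the WT library numbered 2, whose list covered the least of the genome. Without that library the log2 difference was 0.32. Nfkbia had 13.7 and 15.3 kb in IkE5 and 11.7 and 10.1 kb in WT, with no overlap between the groups (log2 difference 0.38, adjusted p = 0.521). H3K27ac peaks covered the whole Nfkbia gene body in all 4 libraries, so the extra length lay in the flanks. The gene body difference of −0.03 reflects the scaling alone. As a share of the window, H3K27ac covered 63.9% and 60.6% of the Nfkbia window in IkE5 and 59.7% and 35.2% in WT, the highest share among the 8 genes in each of the 4 libraries.

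Tnfaip3 leaned the other way, at 13.7 and 12.0 kb in IkE5 and 14.0 and 14.7 kb in WT, groups that did not overlap (log2 difference −0.15, adjusted p = 0.911). Unscaled, Tnfaip3 had 14.8 and 11.1 kb in IkE5 and 16.6 and 11.9 kb in WT, and the groups overlapped. With 2 libraries against 2, groups without overlap reach a 2-sided p of 0.333 at best in an exact permutation test. How many of all genes tested had such groups was not counted, so the lack of overlap is not read as a trait of these genes. The other 5 genes had overlapping groups on the scaled lengths. Rel covered 14.8 and 9.67 kb in IkE5 and 15.9 and 13.4 kb in WT (log2 difference −0.26, adjusted p = 0.814). Nfkbid covered 11.9 and 8.84 kb in IkE5 and 12.6 and 11.0 kb in WT (log2 difference −0.18, adjusted p = 0.899). In both genes the IkE5 library numbered 2 was the low one. Relb covered 8.72 and 5.74 kb in IkE5 and 5.52 and 5.79 kb in WT (log2 difference 0.28, adjusted p = 0.769), with 1 IkE5 library above the rest. Nfkb2 covered 4.41 and 5.35 kb in IkE5 and 4.28 and 4.53 kb in WT (log2 difference 0.12, adjusted p = 0.949). Rela covered 4.49 and 4.83 kb in IkE5 and 5.37 and 4.65 kb in WT (log2 difference −0.09, adjusted p = 0.971).

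**Figure D4:**
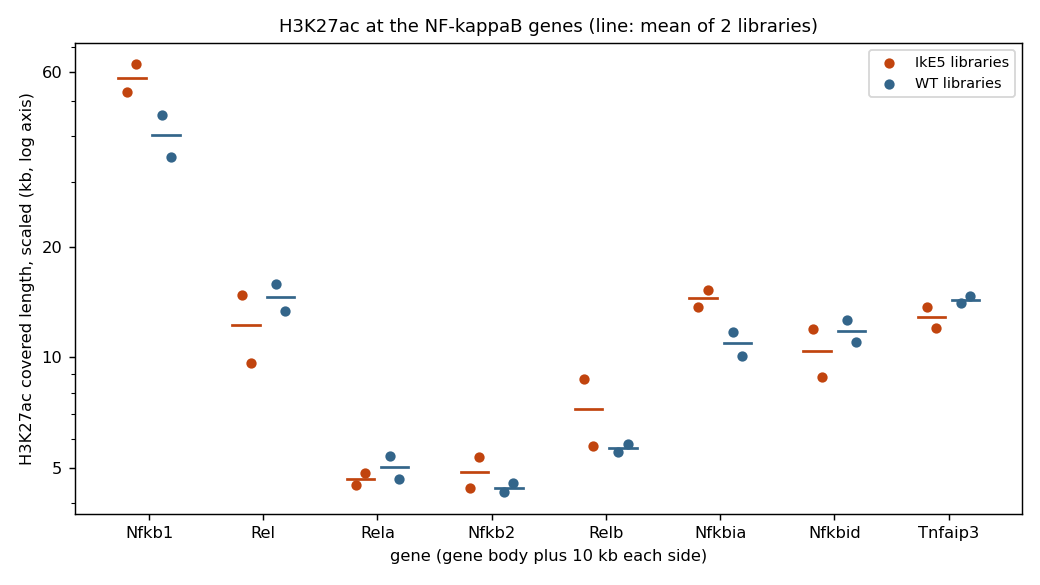
Points give the length covered by H3K27ac peaks at each gene with 10 kb on each side, scaled to the library's total (kb, log axis), with IkE5 libraries left of WT libraries and a line for the mean of 2 libraries. The IkE5 points lie above the WT points at Nfkb1 and Nfkbia and below them at Tnfaip3, and the points of the genotypes overlap at the other 5 genes.

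In WT, where Ikaros was mapped, its peaks were set against those of the other factors at the 8 genes. Of 8 Foxp3 regions found in both WT libraries, 7 (87.5%) overlapped an Ikaros region found in both of its libraries, against 86.4% of such Foxp3 regions in the series. For p300 it was 2 of 6 (33.3%), against 80.9%, and for NFAT1 3 of 10 (30.0%), against 73.2%. With an Ikaros peak in either library counted, these became 8 of 8 for Foxp3 (97.1% in the series), 4 of 6 for p300 (98.0%) and 7 of 10 for NFAT1 (95.0%). Taken within the WT libraries numbered 1 alone, 13 of 17 p300 peaks (76.5%, against 89.0% in the series) and 10 of 16 NFAT1 peaks (62.5%, against 86.6%) overlapped Ikaros. Within those numbered 2, it was 4 of 8 p300 peaks (against 78.9%) and 3 of 13 NFAT1 peaks (23.1%, against 70.6%). The shares at the 8 genes were thus below those of the series for p300 and NFAT1 in each of these counts, and their size rested on which libraries were used. The counts are small, and the difference from other genes was not tested. The NFAT1 regions outside Ikaros regions included the sites within Nfkb1 at 22.2 kb and 2.03 kb upstream of Rel, where neither Ikaros library had a peak.

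Among 53 other genes of the pathway, listed with results of these data known, none passed for H3K27ac covered length by limma in either direction. An unadjusted p under 0.05 was found for 2 of them, against 1637 of the 12714 genes tested. The differences were positive for 33 and negative for 20, with a median of 0.03. NFAT1 had a WT only region at 14 of the 45 genes with any NFAT1 region (31.1%, the same share as over all genes) and an IkE5 only region at 1 (2.22%). Foxp3 regions of either kind were found at 4 genes each of 53 (7.55%). For p300 it was 5 genes each of 45 (11.1%), and for H3K27ac 8 genes IkE5 only and 7 WT only of 53 (15.1% and 13.2%). These shares lay near those of all genes given above, apart from NFAT1 IkE5 only, which rests on 1 gene.

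Bcl3 and Birc2 are among the pathway genes where an NFAT1 region was WT only. Bcl3 encodes a nuclear IkB protein that works with p50 and p52, and its region, chr7:19817321-19817878, lay within the gene. The region at Birc2, an E3 ligase that holds the alternative pathway in check, is shared with the window of its neighbour Birc3, so it cannot be assigned to one of the pair. Prkcq, the kinase that links the T cell receptor to NF-kappaB, held 3 NFAT1 regions and 3 H3K27ac regions that were WT only, and 1 p300 region that was IkE5 only. Its scaled H3K27ac length was 79.6 and 77.5 kb in IkE5 and 81.4 and 103.8 kb in WT (log2 difference −0.22, adjusted p = 0.767). Otulin, which removes linear ubiquitin chains, held a WT only region of each of p300, NFAT1 and H3K27ac, the first pair overlapping within the gene, 2.67 kb downstream of its start.

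Of the 9 adaptors on the list, 3 held IkE5 only H3K27ac regions and 1, Birc3, a WT only one, against 11.2% and 13.3% of all genes. Of the 9 kinases 2 held an IkE5 only H3K27ac region and 2 a WT only one. For the 9 brakes it was 2 and 1, and for the 4 genes of the antigen receptor arm 1 and 1. None of the 13 target genes or the 5 other inhibitors held an H3K27ac region of either kind. Of the 4 genes of linear ubiquitin none held an IkE5 only one and 2 a WT only one. The IkE5 only ones of the adaptors were 3 at Traf2, 2 at Traf3 and 3 at Traf5. Traf2 and Traf3 also held 1 and 2 NFAT1 regions that were WT only. Traf5 held the one NFAT1 region of the list that was IkE5 only, with a p300 region of the same kind beside it. Both lay beyond the lower-coordinate end of the gene, 104 and 106 kb downstream of the nearest start. An IkE5 only H3K27ac region counted for Traf5 lay there too, and whether these regions act on Traf5 was not tested. Traf2, Traf3 and Traf5 did not pass for covered length. N4bp1, a suppressor of NF-kappaB signalling, had the largest difference on the list, 31.6 and 35.3 kb in IkE5 and 21.3 and 13.6 kb in WT. Its groups did not overlap, and its log2 difference of 0.93 ± 0.24 (SE; limma, adjusted p = 0.119) did not pass. It held IkE5 only regions of Foxp3 (1), p300 (1) and H3K27ac (2). Cd69, an early activation marker, was the other gene with an unadjusted p under 0.05, and its difference was negative. It had 8.90 and 9.86 kb in IkE5 and 14.1 and 13.0 kb in WT, groups that did not overlap (log2 difference −0.49 ± 0.20, SE; limma, adjusted p = 0.347). It held an IkE5 only Foxp3 region and a WT only NFAT1 region. Cd40lg, a ligand that engages the alternative pathway in other cells, held 2 NFAT1 regions and 1 p300 region that were WT only. Tnip2, a partner of A20, held 2 p300 regions that were WT only and 1 H3K27ac region that was IkE5 only. Among genes with called regions of a single target, Map3k14 (the kinase NIK of the alternative pathway) held 1 H3K27ac region of each kind, and Tab2, an adaptor of the kinase TAK1, held 2 that were IkE5 only. Bcl2l1, the gene of the survival protein Bcl-xL, held a WT only p300 region, and Cd83, a surface protein induced by NF-kappaB, an IkE5 only one.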

How the data were processed

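The deposited files are peak lists with chromosome, start and end per line, in mm10 coordinates per the submitters' processing notes, which name FastQC, Bowtie2, MACS2, bedtools and HOMER. The peak caller, its cutoff and the input it used are not given in the sources used here. The authors deposited 1 list per library, with no score, signal or p-value, so no stricter set of factor peaks could be made. Peaks of Foxp3, p300, NFAT1 and Ikaros were 500 bp wide with at most 1 exception per list, and H3K27ac peaks were 500 bp or wider. No pair of the 153 pairs of lists shared over 0.745% of its intervals.

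Peaks of a target were joined into regions at 1 bp of overlap. A region with a peak in both libraries of one genotype and in neither of the other was called IkE5 only or WT only, with no test. Genes came from RefSeq (GRCm38.p6), with gene bodies extended by 10 kb. That table gives no exons or strand, so exons, introns and untranslated regions are not told apart, and starts and strand came from the promoter table. H3K27ac covered length was compared in limma 3.58.1 (R 4.3.3) with a trended prior over the 12714 genes whose mean was 1000 bp or more, with Benjamini-Hochberg adjustment at 0.05, after checking the code on simulated data. Other steps used Python 3.11.15, scipy 1.17.1 and matplotlib 3.10.9. The 8 genes, the pathway list of 53 and the marker lists were chosen with earlier results of these data known. All 8 were named, and of the 53 those past 0.05, those with called regions of 2 or more targets and otherwise the 6 with most called regions of p300, NFAT1 and H3K27ac, ties by name. The alternatives covered window, overlap, peak width, scaling, pseudocount, filter, replicate number and each library left out.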

Additional observations from a re-analysis of the deposited data

How the results depend on the processing

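By limma, no adjusted p of the 8 genes passed 0.05 in any of 12 alternatives each (the lowest was 0.0882, Nfkb1 with the replicate number as a block), and 90 of 96 log2 differences kept their sign. Within the gene body alone Rela became 0.115, Relb −0.032 and Nfkbia −0.0258. The Nfkbia body was covered in full in every library, so its value reflects the scaling alone. With a library left out, Rel ranged from −0.545 to 0.0182, Nfkbid from −0.376 to 0.0185 and Rela from −0.174 to 0.00137. Rel and Nfkbid crossed 0 without the IkE5 library numbered 2, and Rela without the WT library numbered 1. The cause was not tested.

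The number of genes past 0.05 was 143, and settings moved it: 95 with a pseudocount of 500 bp, 78 with no filter, 28 with median scaling, 0 with no scaling (1156 at an unadjusted p under 0.05 by limma), and 126 to 631 with a library left out. Deviations of equally numbered H3K27ac libraries correlated across 12714 genes (r = 0.46, genes not being independent replicates). With 2 pairs this is a hint from the data and not the design. With the replicate block 1250 genes passed.

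A call of IkE5 only or WT only asks for fewer libraries when some are left out, so these counts can grow by construction. Within the libraries numbered 1, IkE5 only regions numbered 7 for Foxp3, 2 for p300, 4 for NFAT1 and 14 for H3K27ac, and WT only regions 10, 9, 5 and 17 in the same order. Within those numbered 2, IkE5 only regions numbered 3, 5, 3 and 18, and WT only regions 3, 3, 4 and 6. With a library left out, IkE5 only regions ranged over 1 to 6 for Foxp3, 1 to 2 for p300, 1 to 3 for NFAT1 and 1 to 14 for H3K27ac, and WT only regions over 1 to 7, 2 to 6, 2 to 3 and 3 to 12. In the gene body alone, the WT only regions of Foxp3 and NFAT1 and the IkE5 only region of H3K27ac fell away (0 each), and with 2 kb of flank the NFAT1 and H3K27ac ones did (0 each). H3K27ac gave 3 IkE5 only regions when 250 bp of overlap was asked for, and 2 IkE5 only and 0 WT only regions from peaks of at least 1000 bp.

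The ratio of peaks at the 8 genes, IkE5 over WT, ranged with a library left out over 0.686 to 1.5 for Foxp3, 0.618 to 1.31 for p300, 0.828 to 1.04 for NFAT1 and 0.782 to 1.23 for H3K27ac. For NFAT1 it was 1.66 per 10000 peaks of the list, where the shorter IkE5 lists are the divisor, and 1 in the gene body alone. With Ikaros in either library the overlapping share was 100% for Foxp3 and 70.0% for NFAT1. No set of stricter factor peaks was run, since the lists hold no score.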
